A study of Mus musculus with 9 samples.

Results

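The colon of mice given dextran sulfate sodium together with Linderae Radix extract was compared with the colon of control mice, to show which transcripts differed from the healthy level in treated animals. All mice were C57BL/6. The control group (NC) had 3 mice, and the treated group (LRWE) had 3 mice that received dextran sulfate sodium (DSS) over 9 days of modelling plus the extract at 2.0 g/kg. These 6 libraries were chosen by their group label from 9 in the series, and the other 3 (MC) came from mice given DSS over 9 days without the extract. The dose of the extract comes from the series' design text, while the treatment label of LRWE names DSS alone. The DSS concentration, the day of sampling after DSS, the sex, the age and the stretch of colon taken are not given in the sources used here. An extract-only group was not analysed here, so DSS and the extract cannot be told apart in a difference between LRWE and NC.

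DSS is a sulfated polysaccharide that, given in drinking water, injures the colon epithelium and lets luminal bacteria reach the mucosa. The mouse colon lines itself with absorptive colonocytes, mucus-producing goblet cells and hormone-producing enteroendocrine cells, all renewed from stem cells at the crypt base. Injured epithelium makes secreted lectins of the Reg3 family, which bind bacteria, and serum amyloid proteins. The proximal and distal ends of the colon differ in the transporters, hormones and Hox genes they express, so a transcript can mark position as well as injury. Linderae Radix is the root of Lindera aggregata, used in Chinese medicine, and the title of the series places its action in the JAK/STAT pathway. In that pathway cytokine receptors activate JAK kinases, which phosphorylate STAT transcription factors.

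Upstream sequences of 3 of the most raised genes are shown because they allow the defence transcripts described next to be set beside the STAT factors named in the title. Each covers the 250 bases before the start of the gene in RefSeq, on build GRCm38.p6, read 5′ to 3′ on the strand of the gene. Reg3b lies at chr6:78370635-78370884 on the plus strand, Reg3g at chr6:78468875-78469124 on the minus strand and Saa3 at chr7:46715677-46715926 on the minus strand. Capitals mark a match to TTCNNNGAA, the letters of a STAT-type element, or to TTGCNNAA, the letters of a C/EBP-type element, searched on both strands.
Reg3b: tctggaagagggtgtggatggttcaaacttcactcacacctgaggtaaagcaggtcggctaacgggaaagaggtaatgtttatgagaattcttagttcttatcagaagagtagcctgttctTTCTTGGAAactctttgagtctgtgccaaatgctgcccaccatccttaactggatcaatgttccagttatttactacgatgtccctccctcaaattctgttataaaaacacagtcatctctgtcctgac
Reg3g: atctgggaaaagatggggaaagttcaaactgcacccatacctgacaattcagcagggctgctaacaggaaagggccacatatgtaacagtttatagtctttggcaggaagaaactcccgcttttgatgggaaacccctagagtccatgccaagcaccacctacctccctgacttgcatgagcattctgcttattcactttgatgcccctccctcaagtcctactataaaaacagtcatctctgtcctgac
Saa3: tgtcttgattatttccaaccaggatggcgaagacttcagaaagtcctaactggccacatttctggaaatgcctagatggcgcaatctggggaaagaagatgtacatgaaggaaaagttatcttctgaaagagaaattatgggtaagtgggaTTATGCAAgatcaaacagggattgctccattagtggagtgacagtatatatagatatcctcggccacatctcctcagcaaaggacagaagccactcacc
The Reg3b window held 1 STAT-type match, whose first base was at position -129 before the start, and the Reg3g window held no match to either motif. The Saa3 window held 1 C/EBP-type match, on the opposite strand, whose first base was at -99. Both Reg3 windows carried the letters TATAAA, at -29 in Reg3b and at -27 in Reg3g. Among 32851 such windows of all genes, 7.02% held the STAT-type letters and 9.56% the C/EBP-type letters. Among 1336 windows of genes called higher in LRWE the shares were 5.01% and 7.26%, and among 792 windows of genes called lower they were 5.18% and 11.1%. A match is a run of letters and was not tested for binding.

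Each library held 59042063 to 65042857 counts. Genes with a count ranged from 21218 in LRWE 2 to 26019 in NC 3, and the mitochondrial share of counts ran from 10.2% to 18.9%. The median SD of a gene's log2 level between mice was 0.253 in NC and 0.474 in LRWE. LRWE 2 stood apart from the other 8 libraries on the first principal component (36.6% of the variance), at 220 against 74.6 for LRWE 3 and 5.57 for LRWE 1. The markers of colon epithelium Krt20, Car4 and Muc2 were present in all 9 libraries, while Lgr5, which marks crypt stem cells, was at 7.52, 8.44 and 10.3 CPM in NC and 0.277, 0 and 1.23 in LRWE and had no count in LRWE 2. Results below are therefore also given without single libraries. Levels are CPM, that is counts divided by the TMM-scaled library size, listed in the order of mice 1, 2 and 3 of each group. Differences are log2 fold changes of LRWE over NC ± SE with n = 3 mice a group, tested with edgeR's quasi-likelihood test and adjusted over all genes tested.

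Of 21767 genes tested, 2179 were called at an adjusted p under 0.05, which is 10.0% of the genes tested. LRWE was higher in 1314 of them (6.04%) and lower in 865 (3.97%), and 1410 differed by at least 2-fold. In 2175 of the 2179 the 3 LRWE libraries did not overlap the 3 NC libraries, while 37.1% of all tested genes had libraries that did not overlap. The median log2 fold change was 1.15 over the genes called higher and -1.56 over those called lower, and -0.05 over all genes tested. The same genes had medians of 0.64 and -1.14 for MC against NC, a comparison that uses the same 3 control libraries and called 6.37% of genes. They were picked by their call in LRWE against NC, which favours larger medians there, so these medians do not rank LRWE and MC. LRWE 2 was the LRWE library farthest from NC in 61.3% of the 2179 genes, LRWE 1 in 21.5% and LRWE 3 in 17.3%. The number of calls was 534, 459 and 558 without NC 1, NC 2 and NC 3, and 1410 and 1026 without LRWE 2 and LRWE 3. A set of 385 genes, 222 higher and 163 lower, was called the same way whichever of the 9 libraries was left out.

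**Figure D1:**
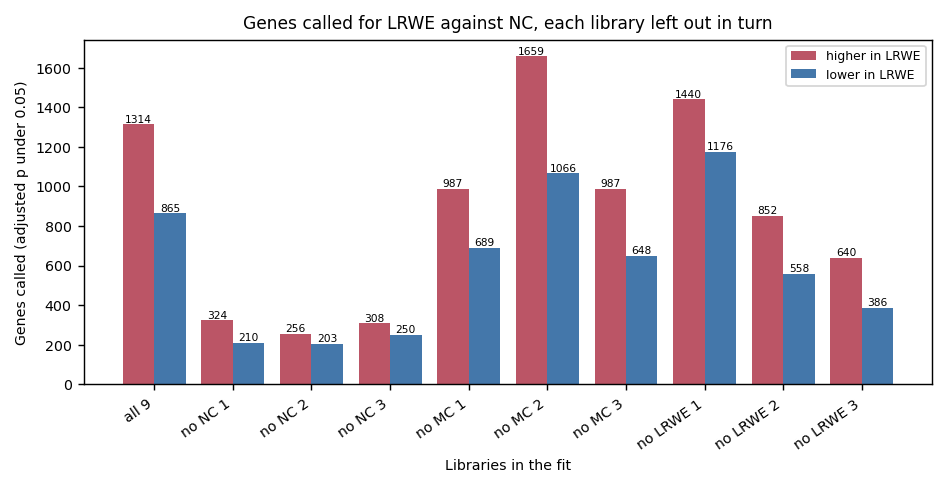
Number of genes called higher (red) and lower (blue) in LRWE than in NC (vertical axis) when all 9 libraries are fitted and when each is left out in turn (horizontal axis). The fits without an NC library have the lowest counts, between 459 and 558 in all.

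Defence lectins of the Reg3 family, serum amyloid A3 and the homeobox gene Isx were among the transcripts with the largest rises. Reg3b, a secreted lectin that binds bacteria, was at 1.65, 1.58 and 1.82 CPM in NC, with MC at 787, 100.2 and 612 and LRWE at 2267, 1016 and 1403. Every LRWE library was above every MC library, and NC was near the bottom of the scale. Its log2 fold change was 9.85 ± 0.88 (adjusted p = 0.00206), beside 8.21 ± 0.83 for MC against the same controls. Reg3g, a lectin active against Gram-positive bacteria, was at 0.418, 0.677 and 1.22 CPM in NC, with MC at 147, 49.8 and 278 and LRWE at 877, 270.2 and 265. LRWE 1 was highest, LRWE 2 and LRWE 3 lay just below MC 3, and none overlapped NC (log2 fold change 9.24 ± 0.96, adjusted p = 0.00261). Reg3a had no count in NC and 1.81, 2.36 and 1.01 CPM in LRWE, at least 107-fold higher. Counts of the Reg3 genes may be split between near-identical copies, so the low level of Reg3a is uncertain. Saa3, a serum amyloid made in inflamed tissue, was at 0.435, 0.554 and 0.667 CPM in NC, with MC at 32.6, 30.5 and 41.0 and LRWE at 72.8, 60.2 and 31.4. MC and LRWE overlapped each other and stayed apart from NC, with a log2 fold change of 6.63 ± 0.38 for LRWE (adjusted p = 0.000659). In the deposited table, whose build is not named, Reg3b lies on chromosome 6 from 78347640 to 78350449, Reg3g on chromosome 6 from 78443252 to 78445855 and Saa3 on chromosome 7 from 46361422 to 46365124.

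In the list of 23 tested antimicrobial and acute phase genes 4 rose (Reg3b, Reg3a, Reg3g and Saa3), 2 fell (Lyz1 and Lyz2) and 17 did not pass, with a median of 0.37 (0.18 without NC 2, 1.0 without NC 3). Lyz1, the Paneth cell lysozyme, was at 2.49, 2.71 and 15.01 CPM in NC and 0.651, 0.628 and 0.780 in LRWE. NC 3 was far above the other controls, and the call (log2 fold change -3.29 ± 0.76, adjusted p = 0.0303) was lost without NC 2, NC 3, LRWE 1, LRWE 2 or LRWE 3. Lyz2 was lost without NC 1, NC 2, NC 3, MC 3, LRWE 2 or LRWE 3. Retnlb, a goblet cell product that acts on bacteria, rose from 0.331, 0.215 and 1.51 CPM in NC to 85.8, 19.2 and 15.04 in LRWE. LRWE 1 was the highest of the 3, the log2 fold change was 5.86 ± 1.18 (adjusted p = 0.0193), and the call was lost without NC 1 or NC 2.

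**Figure D2:**
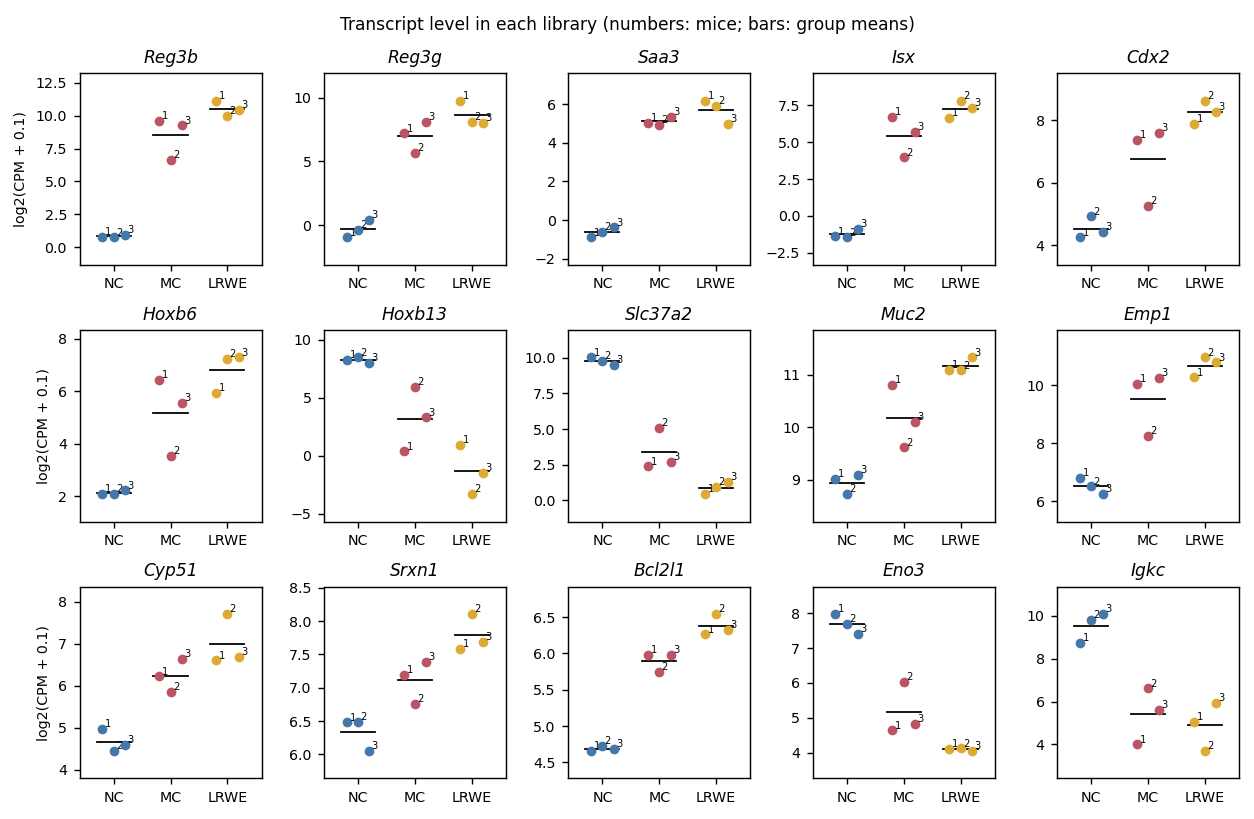
Level of 15 genes in each of the 9 libraries, as log2(CPM + 0.1) on the vertical axis, by group on the horizontal axis. Points are mice, labelled by number, and bars are group means. In every panel the 3 LRWE points lie apart from the 3 NC points, and MC 2 is the MC library nearest NC for Isx, Cdx2, Hoxb6, Hoxb13 and Slc37a2.

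Isx, Sptssb, Ceacam12, Abca12, Prap1, Malrd1 and Ppp3r2 were also among the 12 largest rises. Isx, a homeobox factor of the intestine that restrains uptake of carotenoids, was at 0.279, 0.261 and 0.428 CPM in NC, with MC at 104, 15.4 and 51.2 and LRWE at 98.2, 226 and 158. MC 2 was the lowest of the DSS-treated libraries, LRWE did not overlap NC, and the log2 fold change was 8.95 ± 0.83 (adjusted p = 0.00231). Sptssb, a small subunit of the enzyme that begins sphingolipid synthesis, rose from 0.818, 1.68 and 2.000 CPM in NC to 395, 777 and 459.6 in LRWE (log2 fold change 8.50 ± 0.80, adjusted p = 0.00231). Ceacam12, a member of the carcinoembryonic antigen family, had no count in NC and 2.03, 2.51 and 0.828 CPM in LRWE, at least 111-fold higher (adjusted p = 0.00565). Isx, Sptssb, Ceacam12 and the Reg3 genes named were called without each library in turn. Abca12, a lipid transporter, rose from 0, 0.231 and 0.302 CPM in NC to 61.9, 116 and 86.7 in LRWE, and Prap1, a secreted protein of the upper intestine that takes part in lipid absorption, from 0.487, 0.446 and 0.397 CPM in NC to 74.8, 234 and 118 in LRWE. Both were lost without NC 1, NC 2 or NC 3. Malrd1, which in mouse enterocytes affects production of the bile acid hormone FGF15, rose from 0, 0.0308 and 0.0635 CPM in NC to 3.87, 17.8 and 12.6 in LRWE and was lost without NC 2. Ppp3r2, a regulatory subunit of calcineurin, had no count in NC and 0.943, 4.88 and 3.46 CPM in LRWE, at least 191-fold higher. Its call was lost without NC 1, NC 2, NC 3 or LRWE 3.

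The largest falls ended at or near 0 in LRWE. Mptx1, a mucosal pentraxin, was at 479, 513 and 635 CPM in NC, with MC at 2.33, 21.7 and 1.71 and LRWE at 0.358, 0.129 and 0.341. All 3 LRWE libraries were below all 3 MC libraries, MC 2 was the highest of those, and the log2 fold change was -10.91 ± 1.26 (adjusted p = 0.00404). Fxyd4, a regulator of the sodium pump in the distal colon and kidney, was at 168, 139.8 and 99.1 CPM in NC, with MC at 0.922, 20.6 and 0.631 and LRWE at 0.0325, 0 and 0.0812. MC 2 again kept the most, and the log2 fold change of LRWE was -11.68 ± 1.82 (adjusted p = 0.00804). Casp14, a caspase of cornifying epithelium, was at 22.9, 19.1 and 18.8 CPM in NC, with MC at 0.123, 19.2 and 0.299 and LRWE at 0, 0 and 0. Its level in MC 2 was inside the range of NC while LRWE had no count, at least 1197-fold lower than NC (adjusted p = 0.0417), and the call was lost without NC 1, NC 2, NC 3, LRWE 1, LRWE 2 or LRWE 3. Itih2, a plasma protein that binds hyaluronan, fell from 15.3, 17.7 and 15.1 CPM in NC to no count in LRWE, at least 947-fold lower (adjusted p = 0.0110, lost without NC 2). Actc1, the cardiac alpha actin, had 1.18, 2.98 and 5.86 CPM in NC, 3.81, 2.48 and 2.52 in MC and no count in LRWE, at least 197-fold lower (adjusted p = 0.00481). Mptx1, Fxyd4 and Actc1 were called without each library in turn. The sialyltransferase gene St8sia5 fell from 41.4, 53.9 and 50.1 CPM in NC to 0.130, 0 and 0 in LRWE (log2 fold change -10.02 ± 1.85, adjusted p = 0.0142), and was lost without NC 2 or LRWE 3. Cytl1, Cyp11a1, Defb45, Hrg, Vtcn1 and Klk15 had at most 5.43 CPM in any NC library and no count in LRWE, and their bounds ran from at least 94.3-fold lower (Klk15) to at least 236-fold lower (Cytl1). The call of Cytl1 was lost without NC 3, and those of the other 5 without NC 1, NC 2 or NC 3. The fits without LRWE 3 also lost Cyp11a1, Defb45, Hrg and Vtcn1, and those without LRWE 1 or LRWE 2 lost Hrg.

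Hox genes that were called with all 9 libraries fitted split by their place in the cluster. Hox genes encode factors that set position along the body axis, and members of paralogue groups 10 to 13 are used toward the tail end. Among 23 tested genes of groups 1 to 9, 7 rose and none fell (median 1.05, 0.68 without LRWE 1, 1.06 without MC 2), namely Hoxb3, Hoxb4, Hoxb5, Hoxb6, Hoxb7, Hoxb8 and Hoxd8. Among 10 tested genes of groups 10 to 13, 3 fell and none rose (median -1.77), namely Hoxb13, Hoxd12 and Hoxd13. Some genes that did not pass went against the split under every alternative that tested them. In groups 1 to 9, Hoxa6 (-3.84 to -1.42), Hoxa9 (-2.06 to -0.26), Hoxa5 (-1.6 to -0.04), Hoxa2 (-1.06 to -0.32) and Hoxa3 (-0.95 to -0.11) were lower. In groups 10 to 13, Hoxc10 (0.49 to 9.43) and Hoxc11 (0.32 to 8.92) were higher. Hoxb13, a marker of the distal colon in mice, was at 302, 352 and 248 CPM in NC, with MC at 1.18, 61.2 and 9.70 and LRWE at 1.79, 0 and 0.260. The controls were all high, MC 2 was intermediate and the LRWE libraries were at or near 0, with a log2 fold change of -8.76 ± 1.76 (adjusted p = 0.0189). Hoxd13 behaved alike, at 165, 170.1 and 114 CPM in NC, with MC at 0.799, 34.2 and 1.01 and LRWE at 0.423, 0.480 and 0 (-8.97 ± 1.80, adjusted p = 0.0189). Neither call held without NC 1, NC 2, NC 3 or LRWE 3, and that of Hoxd12 also without LRWE 2. The number called in groups 10 to 13 was 0 without NC 1, NC 2, NC 3 or LRWE 3 and 5 without LRWE 1. Hoxb6 was at 4.11, 4.15 and 4.55 CPM in NC, with MC at 85.5, 11.6 and 46.9 and LRWE at 61.2, 151 and 156. Here MC 2 was the nearest DSS-treated library to NC and LRWE did not overlap NC (4.84 ± 0.70, adjusted p = 0.00637). Hoxb6, Hoxb7 and Hoxb3 were called without each library in turn, whereas Hoxb8 was lost without NC 1, NC 2 or NC 3, and Hoxd8 without NC 1, NC 2, NC 3 or LRWE 3.

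Of 12 tested intestinal identity factors 3 rose and none fell, with a median of 0.26 (0.19 without NC 3, 0.41 without LRWE 1). Cdx2, the homeobox factor that specifies intestine, was at 18.9, 30.1 and 21.2 CPM in NC, with MC at 166, 38.2 and 192 and LRWE at 235, 395 and 309. LRWE lay above NC in all 3 mice, with a log2 fold change of 3.74 ± 0.55 (adjusted p = 0.00664). Elf3, an epithelial ETS factor, rose from 379, 372 and 272 CPM in NC to 809.8, 1011 and 743 in LRWE (1.32 ± 0.21, adjusted p = 0.00866). These 3 (Isx, Cdx2 and Elf3) were called without each library in turn.

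Hormone genes of enteroendocrine cells moved in both directions, with 4 of 12 tested rising, 1 falling and a median of 0.45 (0.17 without NC 3, 0.60 without LRWE 3). Nts, which encodes neurotensin, rose from 0.505, 0 and 0.476 CPM in NC to 66.4, 126 and 109 in LRWE, and LRWE was far from NC in each mouse (8.27 ± 1.42, adjusted p = 0.0113). Sct, the secretin gene, rose from 1.51, 1.14 and 0.936 CPM in NC to 11.5, 21.4 and 19.5 in LRWE (3.87 ± 0.72, adjusted p = 0.0144), and Cck, the cholecystokinin gene, rose by a log2 fold change of 2.81 ± 0.54 (adjusted p = 0.0158). Insl5, a hormone of L cells in the distal colon, was at 84.9, 80.7 and 66.7 CPM in NC, with MC at 1.71, 44.1 and 3.19 and LRWE at 3.09, 2.44 and 2.89. MC 2 held the most of the DSS-treated libraries, while no LRWE library passed 3.09, and the log2 fold change was -4.78 ± 1.12 (adjusted p = 0.0310). Sst, the somatostatin gene, was at 39.1, 45.2 and 41.0 CPM in NC, with MC at 572, 286 and 424 and LRWE at 259.7, 62.8 and 221. Its rise in LRWE was 2.12 ± 0.47 (adjusted p = 0.0270), beside 3.35 ± 0.50 for MC. Leaving out NC 1 or NC 3 lost Nts, and leaving out any NC library lost the other 4. The number of these genes called was 0 without NC 1 or NC 3, 1 without NC 2 and 3 without LRWE 1 or LRWE 3. Insl5 was also lost without any single LRWE library, and Sst without LRWE 1 or LRWE 3.

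Markers of position, namely Hoxb13, Hoxd13, Insl5, Fxyd4, Isx, Cdx2 and Nts, separated LRWE from NC, and the MC libraries differed among themselves in the same genes. The stretch of colon in each library is not known, so position and treatment cannot be told apart for the genes that follow the same order of libraries, and the part of position in the other results was not tested. In whole tissue, fewer cells of a type and less RNA per cell also cannot be told apart.

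Genes of absorptive colonocytes rose more often than they fell, at 8 and 2 of 24 tested with a median of 0.64. Defining markers of the list went both ways. Krt20 rose (1.25 to 1.51 over the 19 alternatives), as did Car1, while Slc26a3 fell (-3.13 to -2.81) and was called in all 19. Aqp8 (-2.91 to -1.78) and Car4 (-2.1 to -1.44) were lower under all 19 but did not pass with all 9 libraries fitted. Car1, a carbonic anhydrase of colonocytes, was at 1090.3, 481 and 372 CPM in NC, with MC at 4945, 801 and 4392 and LRWE at 3642, 16159.5 and 9498. LRWE 2 was the highest library and LRWE did not overlap NC (3.91 ± 0.82, adjusted p = 0.0221). Tmigd1, an adhesion protein of enterocytes, rose from 2.51, 2.84 and 7.89 CPM in NC to 252, 516 and 323 in LRWE (6.36 ± 0.99, adjusted p = 0.00804). Alpi, the intestinal alkaline phosphatase, rose from 0.783, 1.29 and 2.79 CPM in NC to 113, 117 and 109 in LRWE (6.12 ± 1.15, adjusted p = 0.0148), and Fabp2, the intestinal fatty acid binding protein, from 13.1, 13.04 and 19.4 CPM in NC to 283, 506 and 417 in LRWE (4.72 ± 0.90, adjusted p = 0.0157). Both were at or near the control level in MC 2, with 3.58 CPM of Alpi and 17.95 CPM of Fabp2. Slc37a2, a sugar phosphate transporter, was at 1042, 867 and 737 CPM in NC, with MC at 5.05, 33.0 and 6.36 and LRWE at 1.24, 1.81 and 2.34. Its fall of -8.94 ± 0.89 (adjusted p = 0.00236) was among the most stable, since it was called without each library in turn. Car1 was lost without NC 1, NC 2, NC 3 or LRWE 3, Alpi and Fabp2 without NC 1, NC 2 or NC 3, and Tmigd1 without NC 2. The count of called members was 2 without NC 2 and 3 without NC 1 or NC 3.

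Transport genes moved in both directions, with 6 rising and 7 falling of 31 tested and a median of -0.40 (-0.62 without LRWE 1, -0.16 without NC 1). Among those that rose were Slc51a and Slc51b, which together form the bile acid exporter, the carbonic anhydrases Car1 and Car12, and the sodium-proton exchanger Slc9a3. Those that fell were Atp12a, Slc20a1, Slc26a2, Slc26a3, Scnn1a, Scnn1b and Best2, of which Scnn1a and Scnn1b encode subunits of the epithelial sodium channel and Slc26a3 a chloride-bicarbonate exchanger. Slc51a was at 1.20, 0.723 and 0.667 CPM in NC, with MC at 174, 0.445 and 55.8 and LRWE at 138, 341 and 228. LRWE was high in all mice while MC 2 was below every control (8.09 ± 1.68, adjusted p = 0.0211). Atp12a, the colonic proton-potassium pump, was at 333, 485 and 352 CPM in NC, with MC at 7.08, 147 and 5.38 and LRWE at 3.56, 0.610 and 1.33. MC 2 was again between NC and the rest (-7.72 ± 1.496, adjusted p = 0.0165). Slc20a1, a phosphate transporter, was at 1345, 1460.4 and 1183 CPM in NC, with MC at 85.2, 197 and 99.8 and LRWE at 84.7, 184 and 163. The ranges of LRWE and MC coincided, well under NC (-3.21 ± 0.40, adjusted p = 0.00456, beside -3.38 ± 0.40 for MC). Car12 was at 5.22, 6.07 and 7.97 CPM in NC, with MC at 49.9, 21.97 and 49.6 and LRWE at 62.9, 75.3 and 72.2 (3.45 ± 0.33, adjusted p = 0.00231). Scnn1a was lost without NC 1, NC 2 or LRWE 3 and Scnn1b without NC 1, NC 2, NC 3, MC 1, LRWE 1, LRWE 2 or LRWE 3. Slc20a1 and Car12 were called without each library in turn, Slc51a was lost without NC 1, NC 2 or NC 3, and Atp12a without NC 1, NC 2, NC 3 or LRWE 3. Called members of this list numbered 8 without NC 1 or NC 2.

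Among goblet cell genes edgeR gave 3 rises and 1 fall among 19 tested, with a median of 0.15 (-0.10 without LRWE 3, 0.16 without MC 2). Defining markers other than Muc2 did not pass. Over the 19 alternatives Clca1 (-1.39 to -1.05), Tff3 (-0.66 to -0.41) and Agr2 (-0.74 to -0.33) were lower. Fcgbp ranged from 0 to 0.2. Muc2, the gel-forming mucin of colonic mucus, was at 514, 422 and 545 CPM in NC, with MC at 1781, 784 and 1097 and LRWE at 2169, 2168 and 2571. Every LRWE library was above every MC library and every MC library above every control, and LRWE against NC gave 2.22 ± 0.30 (adjusted p = 0.00523). Galnt12, an enzyme that starts mucin O-glycosylation, rose from 19.8, 20.5 and 22.5 CPM in NC to 75.5, 87.7 and 72.3 in LRWE (1.91 ± 0.29, adjusted p = 0.00693). Both were called without each library in turn. Creb3l1, a transcription factor of secretory cells, fell from 56.1, 48.2 and 48.7 CPM in NC to 21.7, 24.5 and 28.0 in LRWE (-1.04 ± 0.19, adjusted p = 0.0135) and was lost without NC 1, NC 2 or NC 3. Of these genes, those called numbered 2 without NC 1 or NC 2 and 7 without MC 2.

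Junction genes had 2 rises and 2 falls of 22 tested, with a median of 0.07 (-0.10 without NC 3, 0.16 without NC 1). Cldn5, a claudin best known from endothelium, was at 15.9, 12.9 and 15.9 CPM in NC, with MC at 8.08, 8.84 and 6.24 and LRWE at 4.83, 3.84 and 3.28, with LRWE below MC in every mouse (-1.902 ± 0.25, adjusted p = 0.00481), and was called without each library in turn. Marveld3, a tight junction protein of the occludin family, fell by 1.26 ± 0.24 (adjusted p = 0.0158, lost without NC 1 or NC 2). F11r, which encodes the adhesion molecule JAM-A, rose by 0.97 ± 0.18 (adjusted p = 0.0145), and Ctnnd1, the p120 catenin, by 1.05 ± 0.27 (adjusted p = 0.0409). F11r was lost without NC 1, NC 3 or LRWE 3, and Ctnnd1 without NC 1, NC 2, NC 3, MC 1, LRWE 2 or LRWE 3. Ocln, the occludin gene, was at 135, 159.9 and 101 CPM in NC, with MC at 51.4, 29.4 and 42.6 and LRWE at 53.7, 81.9 and 73.9, and Tjp1, the scaffold ZO-1, at 131, 151 and 102 CPM in NC and 81.4, 92.0 and 91.3 in LRWE. LRWE did not overlap NC in either, yet neither passed the threshold (-0.92 ± 0.26, adjusted p = 0.0559, and -0.54 ± 0.17, adjusted p = 0.0788). Ocln was called with library totals as scaling, a filter at a mean CPM of at least 1, DESeq2, limma on log2(FPKM + 1), limma on log2(FPKM + 0.1), the NC and LRWE libraries alone and voom, and without MC 2 (adjusted p = 0.00645 to 0.0475). Tjp1 was called with DESeq2 and voom (adjusted p = 0.0198 to 0.0252). Junction calls numbered 1 without NC 1, 2 without NC 2, NC 3 or LRWE 3 and 7 without MC 2. Cldn1 had at most 3.66 CPM in any library and did not pass (-3.26 ± 1.22, adjusted p = 0.125). Cldn1 was called with DESeq2, limma on log2(FPKM + 1), limma on log2(FPKM + 0.1) and voom (adjusted p = 0.00470 to 0.0245).

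Genes of the crypt base fell more often than they rose, at 4 and 1 of 19 tested with a median of -0.85. Axin2 and Znrf3 encode feedback inhibitors of Wnt signalling, and Ephb3 a receptor that sorts crypt cells. Axin2 was at 16.8, 17.6 and 17.9 CPM in NC and 4.86, 3.86 and 8.84 in LRWE (-1.57 ± 0.33, adjusted p = 0.0212), and Ephb3 at 29.9, 32.8 and 26.1 CPM in NC and 6.98, 3.60 and 8.72 in LRWE (-2.20 ± 0.40, adjusted p = 0.0140). No LRWE library reached the lowest control in either. Znrf3 fell by 1.24 ± 0.31 (adjusted p = 0.0402), and Reg4, made by deep crypt secretory cells, fell by 2.96 ± 0.77 (adjusted p = 0.0444). Prom1, a membrane glycoprotein of crypt cells and of apical membranes, went the other way, at 97.2, 111 and 91.7 CPM in NC, with MC at 287, 168 and 392 and LRWE at 484, 663 and 522 (2.48 ± 0.30, adjusted p = 0.00419). Prom1 was called without each library in turn. Ephb3 was lost without NC 1 or NC 2, Axin2 without NC 1, NC 2 or NC 3, Reg4 without NC 1, NC 2, NC 3, MC 3, LRWE 1, LRWE 2 or LRWE 3, and Znrf3 without NC 1, NC 2, NC 3, MC 1, MC 3, LRWE 2 or LRWE 3. Lgr5, with LRWE near 0 in all mice, had -4.11 ± 1.15 (adjusted p = 0.0550, and 0.0234 without LRWE 2, 1 of 2 single libraries whose omission gave a call). It was called in 7 of 19 alternatives. Calls for the crypt base numbered 1 without NC 1 or NC 2, 2 without NC 3 and 3 without MC 3. edgeR called none of 20 tested cell cycle genes (median -0.34, -0.57 without NC 2, -0.26 without NC 3). Those at an unadjusted p under 0.05 numbered 3, and DESeq2 called 3. edgeR called 1 without MC 2 or LRWE 1.

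Genes of wound-associated epithelium gave 5 rises and 3 falls (Anxa3, Krt17 and Upp1) of 25 tested, with a median of -0.19 (-0.62 without LRWE 1, 0.12 without NC 3). Emp1, an epithelial membrane protein, was at 110.5, 90.4 and 75.0 CPM in NC, with MC at 1048, 301 and 1219.9 and LRWE at 1225, 1979 and 1760.0, and was called without each library in turn (4.17 ± 0.51, adjusted p = 0.00443). Plet1, a surface protein of migrating epithelium, was at 1.69, 1.32 and 2.79 CPM in NC, with MC at 41.1, 171 and 283 and LRWE at 305, 37.6 and 21.8. LRWE 1 was about as high as MC 3 and LRWE 2 and LRWE 3 were below MC 1, yet all 3 exceeded NC (5.97 ± 1.19, adjusted p = 0.0185). Sprr1a, a cornified envelope protein, was at 2.16, 2.45 and 2.11 CPM in NC and 52.9, 26.8 and 6.24 in LRWE (3.68 ± 0.75, adjusted p = 0.0198), and Plaur, the urokinase receptor, at 3.36, 3.11 and 4.49 CPM in NC and 39.1, 21.1 and 5.69 in LRWE (2.59 ± 0.63, adjusted p = 0.0351). For both, LRWE 1 was the highest LRWE library and LRWE 3 the lowest. Itga2, a collagen-binding integrin, rose by 2.65 ± 0.42 (adjusted p = 0.00860, lost without NC 2). Krt17 and Anxa3 were lost without NC 1, NC 2, NC 3, LRWE 2 or LRWE 3, and Upp1 without NC 1, NC 2, MC 1, LRWE 1, LRWE 2 or LRWE 3. Plet1 and Sprr1a were lost without NC 1, NC 2 or NC 3, and Plaur without NC 1, NC 2, NC 3, LRWE 1 or LRWE 2. Leaving out libraries gave counts of 1 without NC 2, 2 without NC 1, 3 without NC 3, 4 without LRWE 2 and 5 without LRWE 3.

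**Figure D3:**
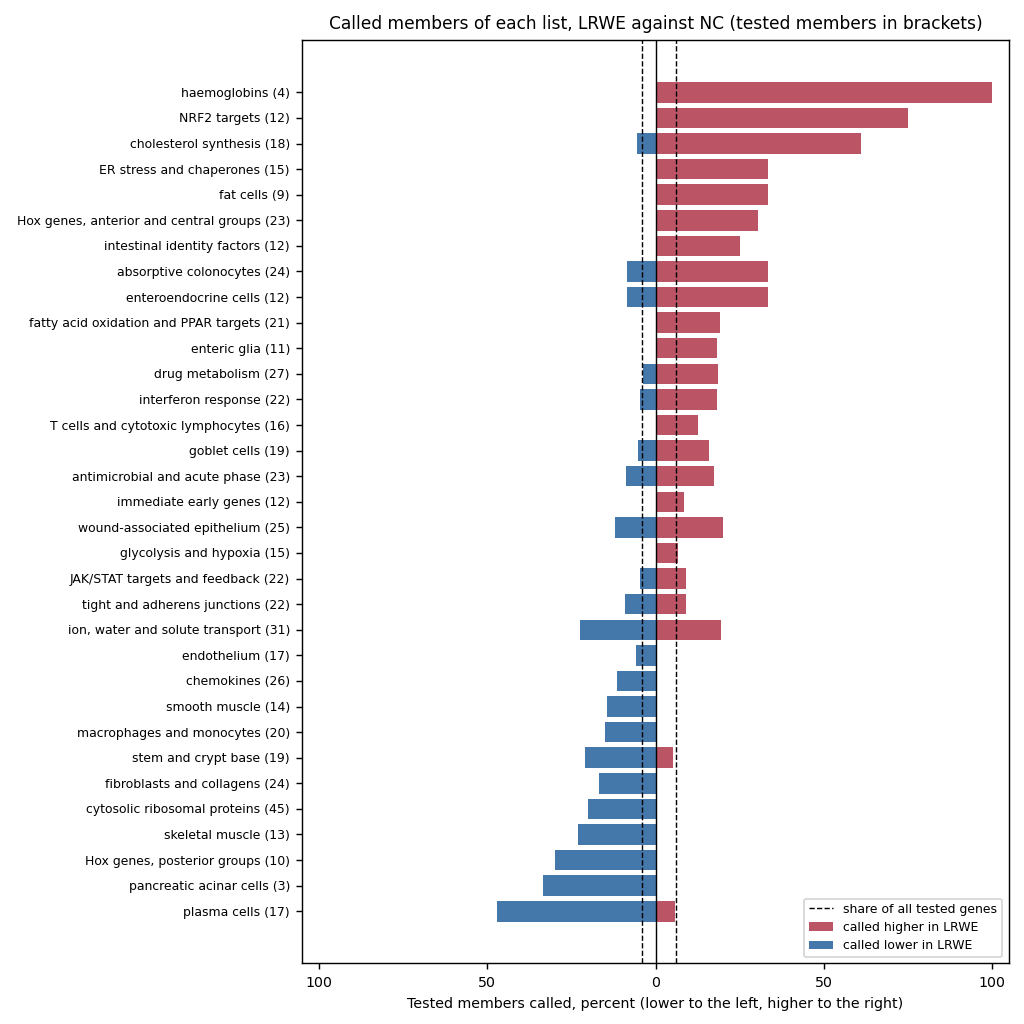
Share of the tested members of each gene list called higher (red, right) or lower (blue, left) in LRWE than in NC, in percent on the horizontal axis, for the 33 lists with a called member. Dashed lines mark the shares among all tested genes, 6.04% higher and 3.97% lower, and the haemoglobin, NRF2 and cholesterol lists reach farthest to the right.

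Genes of cholesterol synthesis and uptake rose together, with 11 of 18 tested higher, 1 lower and a median of 1.28. The rises included Cyp51, Idi1, Hmgcs1, Sqle, Fdps, Fdft1, Lss and Srebf2, of which Srebf2 encodes the factor that drives the genes of the pathway. Cyp51, the lanosterol demethylase, was at 31.4, 21.7 and 24.0 CPM in NC, with MC at 74.6, 57.4 and 100.2 and LRWE at 97.3, 208 and 103. LRWE did not overlap NC and LRWE 2 was the highest (2.40 ± 0.34, adjusted p = 0.00585). Insig1, which holds the SREBP complex in the endoplasmic reticulum and is itself an SREBP target, was the member that fell, at 95.5, 139 and 92.9 CPM in NC, with MC at 32.8, 41.0 and 41.2 and LRWE at 33.6, 42.6 and 34.8. All 6 DSS-treated libraries were below all 3 controls, with -1.56 ± 0.20 for LRWE (adjusted p = 0.00467) and -1.51 ± 0.20 for MC. Cyp51 and Insig1 were called without each library in turn, and Idi1 (1.48 ± 0.26, adjusted p = 0.0117) was lost without NC 2 or NC 3. Hmgcs1 and Lss were lost without NC 1, NC 2 or NC 3, Sqle without NC 1, NC 2, NC 3 or LRWE 2, Fdps without NC 2 and Fdft1 without NC 1 or NC 3. In MC against the same controls 11 members were called higher and 1 lower, with a median of 1.15. The list had calls numbering 7 without NC 2 or NC 3.

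Targets of NRF2, the factor that induces enzymes against oxidants and electrophiles, were called higher in 9 of 12 tested and lower in none, with a median of 1.13. Beside it, MC against the same controls had 1 called higher and a median of 0.55. Srxn1, which repairs oxidised peroxiredoxins, was at 89.2, 89.7 and 66.2 CPM in NC, with MC at 146, 108 and 167 and LRWE at 191, 275 and 206 (1.45 ± 0.22, adjusted p = 0.00744). Each LRWE library exceeded each MC library. Me1, the malic enzyme that makes NADPH, was at 26.7, 21.2 and 25.7 CPM in NC, with MC at 66.0, 53.0 and 64.3 and LRWE at 67.8, 86.5 and 75.2 (1.64 ± 0.16, adjusted p = 0.00236). Srxn1 and Me1 were called without each library in turn. Nqo1, a quinone reductase, was at 9.33, 10.03 and 8.93 CPM in NC, with MC at 25.4, 4.56 and 17.5 and LRWE at 21.8, 85.7 and 50.9, where LRWE 2 stood highest and MC 2 was below NC (2.48 ± 0.63, adjusted p = 0.0402). Gclc, the catalytic subunit of the enzyme that limits glutathione synthesis, was at 44.2, 51.3 and 55.1 CPM in NC and 88.2, 214 and 168 in LRWE (1.65 ± 0.30, adjusted p = 0.0142), and Hmox1, haem oxygenase, rose by 1.67 ± 0.33 (adjusted p = 0.0177). Nqo1 was lost without NC 1, NC 2, NC 3, MC 3, LRWE 2 or LRWE 3, Gclc without NC 1, NC 2 or NC 3, and Hmox1 without NC 1, NC 2, NC 3 or LRWE 3. Of the 12, those called numbered 2 without NC 1, NC 2 or NC 3, 3 without LRWE 3 and 4 without LRWE 2.

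Genes of drug metabolism gave 5 rises and 1 fall (Gstm1) of 27 tested, with a median of 0.59. Cyp2c55, a colonic cytochrome P450, was at 599, 581 and 444 CPM in NC, with MC at 1613, 343 and 1289 and LRWE at 1637, 4673 and 2768. MC 2 was below every control and LRWE 2 was the highest library (2.48 ± 0.57, adjusted p = 0.0292). Cyp2d26, another P450, rose from 6.68, 10.7 and 9.49 CPM in NC to 128, 199.8 and 208 in LRWE (4.31 ± 1.01, adjusted p = 0.0310), and Ces1f, a carboxylesterase, from 6.98, 6.97 and 8.89 CPM in NC to 52.7, 137 and 121 in LRWE (3.77 ± 0.92, adjusted p = 0.0365). Ugt2b5, a glucuronosyltransferase, rose by 7.37 ± 1.88 (adjusted p = 0.0414), and Gstp1, a glutathione transferase, by 1.61 ± 0.42 (adjusted p = 0.0460). These genes have close relatives, between which counts may be split. All 5 rises were lost without any one NC library and without LRWE 2 or LRWE 3, and all but Cyp2c55 also without MC 3. Ugt2b5 and Gstp1 were lost without MC 1 too. Calls in the list numbered 1 without NC 1, NC 2, NC 3, LRWE 2 or LRWE 3 and 2 without MC 3.

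Fatty acid oxidation and PPAR target genes had 4 rises and no fall of 21 tested, with a median of 0.67. Pparg, a nuclear receptor of colonocytes and fat cells, was at 28.2, 25.1 and 20.98 CPM in NC, with MC at 102, 31.3 and 116 and LRWE at 114, 252 and 172 (2.86 ± 0.48, adjusted p = 0.0103, lost without NC 2 or NC 3). MC 2 lay close to NC and LRWE 2 was highest. Calls in this list numbered 0 without NC 2 or NC 3, 1 without NC 1, 2 without LRWE 3 and 9 without MC 2. Pdk4, a kinase that turns cells from glucose to fat, rose by 1.69 ± 0.32 (adjusted p = 0.0156), and Acadvl, a mitochondrial dehydrogenase of long fatty acids, by 0.92 ± 0.24 (adjusted p = 0.0463). Both were lost without any NC library and without LRWE 3, and Acadvl also without LRWE 2, MC 1 or MC 3. Endoplasmic reticulum chaperones had 5 rises of 15 tested and no fall (median 0.34, 0.20 without LRWE 2, 0.40 without LRWE 1). Canx, the calnexin gene, was at 145, 143 and 131 CPM in NC, with MC at 216, 186 and 199 and LRWE at 244, 333 and 287 and was called without each library in turn (1.04 ± 0.15, adjusted p = 0.00645). Chaperone calls numbered 1 without NC 1, NC 2 or NC 3, 2 without MC 3 or LRWE 2 and 3 without MC 1 or LRWE 3. The other rises were in Atf4 (0.82 ± 0.19, adjusted p = 0.0303), Manf (0.71 ± 0.16, adjusted p = 0.0266), Pdia6 (0.56 ± 0.13, adjusted p = 0.0337) and Calr (0.50 ± 0.13, adjusted p = 0.0409), all lost without any one NC library. Atf4 was also lost without MC 3, Manf without LRWE 2, Pdia6 without MC 1, MC 3, LRWE 2 or LRWE 3, and Calr without any library but MC 2. Of 15 glycolysis and hypoxia genes, Car9, a carbonic anhydrase induced by hypoxia, was called (1.88 ± 0.33, adjusted p = 0.0125, lost without NC 1 or NC 3). Aldoa (0.85 ± 0.25, adjusted p = 0.0616) and Ldha (0.77 ± 0.25, adjusted p = 0.0855), the most abundant members, did not pass. Aldoa was called with library totals as scaling, DESeq2, limma on log2(FPKM + 1), limma on log2(FPKM + 0.1) and voom, and without MC 2 (adjusted p = 0.00597 to 0.0361). Ldha was called with DESeq2 and voom (adjusted p = 0.0203 to 0.0300). edgeR called none of 31 tested genes of oxidative phosphorylation (median 0.28, 0.07 without LRWE 2, 0.42 without LRWE 1). At an unadjusted p under 0.05 there were 8, and DESeq2 called 4. edgeR called 3 without MC 2 or LRWE 1. With library totals in place of TMM it called 4.

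Cytosolic ribosomal protein genes fell in 9 of 45 tested and rose in none, with a median of -0.38 (-0.59 without LRWE 2, -0.20 without LRWE 1). In MC against the same controls 34 were called lower, where 3.53% of all genes were, with a median of -0.998. Rpl12 was at 618, 562 and 648 CPM in NC, with MC at 202, 179.5 and 217 and LRWE at 222, 339.8 and 302. LRWE lay above MC and below NC in every mouse, with -1.08 ± 0.18 against NC (adjusted p = 0.0110), and the call held without each library in turn. Rpl9 was at 364, 375 and 367 CPM in NC, with MC at 131, 152 and 158 and LRWE at 179, 239 and 215, in the same order of groups (-0.81 ± 0.15, adjusted p = 0.0150, lost without NC 1 or NC 3). Rps19 (-0.98 ± 0.22, adjusted p = 0.0269), Rpl32 (-0.89 ± 0.24, adjusted p = 0.0479) and Rps18 (-0.83 ± 0.19, adjusted p = 0.0301) also fell. Rps19 was lost without NC 1, NC 3 or LRWE 3, Rps18 without NC 1, NC 2, NC 3 or LRWE 3, and Rpl32 without NC 1, NC 2, NC 3, MC 1, MC 3, LRWE 1 or LRWE 3. Genes of this family have processed copies, so their counts are uncertain. Calls in the family numbered 1 without NC 1 or NC 3 and 3 without NC 2 or LRWE 3.

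**Figure D4:**
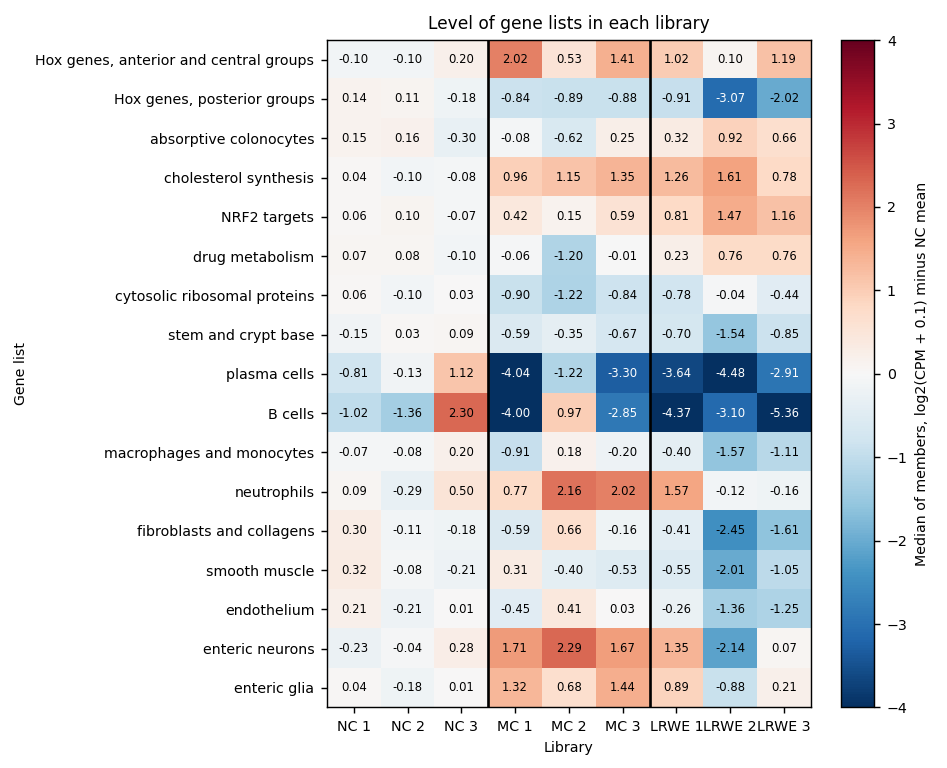
Median level of the members of 17 gene lists (rows) in each of the 9 libraries (columns), as log2(CPM + 0.1) minus the mean of NC, with red above and blue below the control mean. The plasma cell list is at -2.91 or lower in every LRWE library, and the stromal lists are lowest in LRWE 2.

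Plasma cell genes, most of them antibody chains, fell in 8 of 17 tested and 1 rose (Sdc1, a proteoglycan also made by epithelium), with a median of -3.97. The summed level of the list was 1063 to 3129 FPKM (the authors' length-normalised level) in NC and 124 to 265 FPKM in LRWE. Igkc, the kappa light chain constant region, was at 421, 895 and 1071 CPM in NC, with MC at 15.9, 97.8 and 48.6 and LRWE at 33.4, 12.8 and 61.7. LRWE and MC overlapped, and both were far below NC (-4.47 ± 0.80 for LRWE, adjusted p = 0.0130, lost without NC 2). Ighg2c, a heavy chain of IgG, was at 0.731, 1.35 and 9.35 CPM in NC and had no count in LRWE, at least 225-fold lower (adjusted p = 0.0173). NC 3 held most of it, and the call held without each library in turn. Iglc1 (-6.26 ± 1.45, adjusted p = 0.0304), Iglc2 (-5.63 ± 1.31, adjusted p = 0.0308) and Derl3 (-4.64 ± 1.12, adjusted p = 0.0350), the last a protein of the secretory pathway, also fell, each highest in NC 3. Iglc1 was lost without NC 1, NC 2, NC 3, LRWE 1 or LRWE 3, Iglc2 without NC 2, NC 3, LRWE 1, LRWE 2 or LRWE 3, and Derl3 without NC 1, NC 2, NC 3, MC 1, MC 3 or LRWE 1. Constant regions of one class are near-identical, so the division of counts between them is uncertain. In this list the number of calls was 3 without NC 2, 4 without NC 3 and 5 without LRWE 1.

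B cell markers had no edgeR call among 12 tested, and the median was -5.43 (-6.42 without LRWE 2, -3.14 without NC 3). All 12 had lower, separate LRWE libraries, as did 20.5% of all tested genes. An unadjusted p under 0.05 was found for 12, and DESeq2 called 5. Ighd, the IgD heavy chain, was at 6.46, 4.54 and 84.8 CPM in NC, with MC at 0.230, 29.8 and 1.91 and LRWE at 0.260, 1.79 and 0.0975 (-5.49 ± 1.996, adjusted p = 0.116), and Cd37, a tetraspanin of B cells, at 8.67, 8.18 and 61.9 CPM in NC and 1.97, 4.25 and 2.18 in LRWE (-3.23 ± 1.09, adjusted p = 0.0940). NC 3 was the highest control by far in both. Calls numbered 1 without MC 1 and 8 without MC 2. Cd37 was called with DESeq2, and without MC 2 (adjusted p = 0.00474 to 0.0443). Among cytotoxic lymphocyte and T cell genes 2 of 16 tested rose and none fell (median 0.42, 0.07 without LRWE 2, 1.0 without NC 3), and the count was 1 without NC 1, NC 2, NC 3 or LRWE 3. Gzmb, granzyme B, was at 0.940, 0.969 and 0.746 CPM in NC, with MC at 7.07, 2.02 and 6.93 and LRWE at 6.23, 11.2 and 7.60 and was called without each library in turn (3.23 ± 0.51, adjusted p = 0.00828). Gzma, granzyme A, rose by 1.87 ± 0.39 (adjusted p = 0.0221) and was lost without NC 1, NC 2, NC 3 or LRWE 3. Defining T cell markers did not pass with all 9 libraries fitted and went different ways. Over the alternatives Cd3e ranged from -0.44 to 0.6, Cd4 was lower (-2.13 to -0.26) and Cd8a was higher (0.87 to 2.14). Cd2 (-2.94 to -0.97) was also lower and did not pass.

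Macrophage and monocyte genes fell in 3 of 20 tested and rose in none, with a median of -0.94 (-1.49 without LRWE 1, -0.68 without NC 3). The count was 0 without NC 2 or NC 3, 1 without NC 1 or LRWE 3 and 9 without LRWE 1. Mrc1, a mannose receptor of resident macrophages, was at 19.3, 16.7 and 20.5 CPM in NC, with MC at 10.8, 19.6 and 13.3 and LRWE at 10.6, 6.17 and 6.30 (-1.29 ± 0.29, adjusted p = 0.0289), and C1qc, a complement component they make, at 30.7, 30.5 and 37.4 CPM in NC and 18.04, 8.39 and 6.89 in LRWE (-1.57 ± 0.37, adjusted p = 0.0333). Ly6c2, a marker of monocytes, fell by 2.54 ± 0.49 (adjusted p = 0.0167). Mrc1 was lost without NC 1, NC 2, NC 3, LRWE 2 or LRWE 3, C1qc without NC 1, NC 2, NC 3, MC 3, LRWE 2 or LRWE 3, and Ly6c2 without NC 2 or NC 3. The defining markers of this list did not pass with all 9 libraries fitted. Csf1r (-2.4 to -1.28) and Cd68 (-1.3 to -0.64) were lower under all 19 alternatives, while Adgre1 ranged from -0.02 to 0.35. Arg1 (0.73 to 2.83) and Spp1 (0.06 to 3.7) were higher under every alternative that tested them, without a call. No neutrophil gene of 12 tested was called by edgeR (median 1.22, 0.12 without LRWE 1, 2.29 without NC 3). An unadjusted p under 0.05 was found for 5, and DESeq2 called 5. edgeR called 1 without MC 2 or LRWE 3. Ly6g, which the list holds as a neutrophil marker, was at 225, 218 and 140.0 CPM in NC, with MC at 16.4, 234 and 55.4 and LRWE at 59.3, 15.9 and 14.1, with controls about as high as MC 2 (-2.70 ± 0.91, adjusted p = 0.0940). Ly6g was called with DESeq2, the NC and LRWE libraries alone and voom, and without MC 2 (adjusted p = 0.00403 to 0.0343). Ltf, lactoferrin of neutrophil granules, was at 0.592, 0.523 and 0 CPM in NC, with MC at 2.66, 10.6 and 1.83 and LRWE at 5.08, 2.33 and 1.17 and did not pass (2.94 ± 1.22, adjusted p = 0.160). Ltf was called with DESeq2 (adjusted p = 0.0492).

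Interferon response genes had 4 rises and 1 fall (Gbp2) of 22 tested, with a median of 1.23. Oas3, an RNA sensor, was at 22.6, 9.33 and 3.81 CPM in NC, with MC at 73.3, 19.1 and 33.8 and LRWE at 63.5, 79.8 and 103 (2.79 ± 0.67, adjusted p = 0.0344). Bst2, tetherin, was at 14.8, 10.5 and 12.6 CPM in NC and 26.4, 33.9 and 29.8 in LRWE (1.25 ± 0.24, adjusted p = 0.0167). NC 1 was the highest control for Oas3, Ifi44 and Usp18, the last a brake on interferon signalling (2.70 ± 0.73, adjusted p = 0.0485, and 2.27 ± 0.57, adjusted p = 0.0395). Gbp2, a guanylate-binding protein, was at 318, 139.7 and 52.4 CPM in NC and 43.8, 43.0 and 30.0 in LRWE (-2.13 ± 0.56, adjusted p = 0.0460). Bst2 was lost without NC 1, NC 2, NC 3 or LRWE 3, Oas3 without NC 2, NC 3, MC 3, LRWE 2 or LRWE 3, Ifi44 and Usp18 without NC 2, NC 3, MC 3, LRWE 1, LRWE 2 or LRWE 3, and Gbp2 without NC 1, NC 2, MC 1, MC 3, LRWE 1, LRWE 2 or LRWE 3. Interferon calls numbered 0 without NC 2 or LRWE 3, 1 without NC 3, MC 3 or LRWE 2 and 2 without LRWE 1. Chemokine genes had 3 falls of 26 tested and no rise (median -0.49, -1.22 without LRWE 1, -0.29 without NC 1). These were Ccl11, which attracts eosinophils (-3.06 ± 0.70, adjusted p = 0.0291), the lymphoid chemokine Ccl21a (-2.03 ± 0.46, adjusted p = 0.0291) and the stromal chemokine Cxcl12 (-1.60 ± 0.40, adjusted p = 0.0378). All 3 were lost without any one NC library and without LRWE 2 or LRWE 3, and Cxcl12 also without MC 3. There were 6 chemokine calls without LRWE 1.

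None of 16 tested inflammatory cytokine genes was called by edgeR (median 0.48, -0.35 without LRWE 1, 0.86 without LRWE 3). At an unadjusted p under 0.05 there were 5, and DESeq2 called 2. edgeR called 1 without MC 1 or MC 2 and 3 without LRWE 1. Il1b was at 0.522, 0.646 and 0.809 CPM in NC, with MC at 1.58, 8.67 and 7.74 and LRWE at 8.77, 1.81 and 0, and Tnf at 1.88, 1.75 and 3.59 CPM in NC, with MC at 10.6, 15.3 and 8.01 and LRWE at 10.6, 5.84 and 1.09. LRWE 3 was below every control for both, LRWE 1 was far above, and the groups overlapped (2.42 ± 1.44, adjusted p = 0.326, and 1.28 ± 0.69, adjusted p = 0.274). Il6 had no count in NC or in LRWE 3 and 0.455 and 0.813 CPM in LRWE 1 and LRWE 2 (adjusted p = 0.181). Il18, an epithelial cytokine, was at 191, 152 and 148 CPM in NC, with MC at 20.5, 106 and 83.5 and LRWE at 59.0, 38.2 and 19.4 and missed the threshold (-2.07 ± 0.57, adjusted p = 0.0534). No LRWE library reached the lowest control. Il18 was called with a filter at a mean CPM of at least 1, DESeq2, limma on log2(FPKM + 1), limma on log2(FPKM + 0.1), the NC and LRWE libraries alone and voom, and without MC 1, MC 2 or LRWE 1 (adjusted p = 0.00210 to 0.0449). Tgfb1 did not pass either (-1.15 ± 0.35, adjusted p = 0.0702). Tgfb1 was called with DESeq2 and voom, and without LRWE 1 (adjusted p = 0.0170 to 0.0365).

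Stromal genes that were called with all 9 libraries fitted were called lower. Among fibroblast and collagen genes 4 of 24 tested fell (median -1.32), among smooth muscle genes 2 of 14 (median -1.17), and among endothelial genes 1 of 17 (median -0.88, -1.35 without LRWE 1, -0.70 without LRWE 3). Pi16, a marker of adventitial fibroblasts, was at 9.09, 8.53 and 11.6 CPM in NC, with MC at 0.292, 1.63 and 0.764 and LRWE at 0.179, 0.259 and 0.0650 and was called without each library in turn (-5.86 ± 0.76, adjusted p = 0.00481). Col3a1, a fibrillar collagen, was at 721, 462 and 396 CPM in NC, with MC at 242, 555 and 266 and LRWE at 220.3, 90.2 and 125 (-1.86 ± 0.43, adjusted p = 0.0310). Postn, periostin, fell by 1.42 ± 0.36 (adjusted p = 0.0403), and Dpt, dermatopontin, fell by 1.27 ± 0.32 (adjusted p = 0.0401). Tagln, an actin-binding protein of smooth muscle, was at 2612, 1956 and 1772 CPM in NC, with MC at 1620.3, 1169 and 1108 and LRWE at 1035, 569 and 712 (-1.45 ± 0.28, adjusted p = 0.0165), and Casq2, a calcium store protein, fell by 2.11 ± 0.53 (adjusted p = 0.0389). For Col3a1, Postn, Dpt and Tagln the lowest library was LRWE 2. Sox17, an arterial transcription factor, fell by 2.08 ± 0.45 (adjusted p = 0.0251), while the endothelial genes Plvap (-0.41 ± 0.45, adjusted p = 0.616) and Lyve1 (-1.66 ± 0.46, adjusted p = 0.0555) did not pass. Tagln was lost without NC 1, NC 2 or LRWE 3, Col3a1 without NC 1, NC 2, NC 3, LRWE 2 or LRWE 3, Postn and Dpt without NC 1, NC 2, NC 3, MC 1, MC 3, LRWE 2 or LRWE 3, Casq2 without NC 1, NC 2, NC 3, MC 3, LRWE 2 or LRWE 3, and Sox17 without NC 1, NC 2, NC 3 or LRWE 3. Fibroblast calls numbered 1 without NC 1, NC 2, NC 3, LRWE 2 or LRWE 3, 2 without MC 3 and 13 without LRWE 1. Smooth muscle calls numbered 0 without NC 1, NC 2 or LRWE 3, 1 without NC 3, MC 3 or LRWE 2 and 9 without LRWE 1, and endothelial calls 0 without NC 1, NC 2, NC 3 or LRWE 3, 2 without MC 3 or LRWE 2, 3 without MC 2 and 7 without LRWE 1. The second endothelial call without LRWE 2 was a rise, in Prox1, a factor of lymphatic endothelium (1.72, adjusted p = 0.0370). Lyve1 was called with a filter at a mean CPM of at least 1, DESeq2, limma on log2(FPKM + 1), limma on log2(FPKM + 0.1) and voom, and without MC 2 or LRWE 1 (adjusted p = 0.00299 to 0.0483).

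Skeletal muscle genes fell in 3 of 13 tested, with a median of -2.65 and a summed level of 107 to 142 FPKM in NC and 24.1 to 30.4 FPKM in LRWE. Under alternatives other than leaving out 1 library the median ran from -3.61 to -0.26. Not every member fell. Ckm (0.15 to 0.54) and Myl1 (0.22 to 0.85) were higher under all 19 alternatives without a call. Acta1 (-0.34 to 1.68) was not called either, and Myh4 had no count in any library. Eno3, the muscle enolase, was at 249, 206 and 169.5 CPM in NC, with MC at 24.8, 65.3 and 28.2 and LRWE at 17.2, 17.3 and 16.4. The 3 LRWE libraries lay within 1 CPM of each other and below all others (-3.62 ± 0.37, adjusted p = 0.00261), and the call held without each library in turn. Myh2, a fast myosin, fell from 2.65, 2.77 and 2.44 CPM in NC to 0, 0 and 0.0650 in LRWE (-6.76 ± 1.24, adjusted p = 0.0140, lost without NC 1, NC 2 or NC 3). Mb, myoglobin, had 0, 3.77 and 3.92 CPM in NC and none in LRWE, so the groups overlapped at 0, and its call (adjusted p = 0.0467) was lost without any single library except NC 1. Neuronal genes had no edgeR call among 17 tested (median 0.37, -0.62 without LRWE 1, 0.80 without LRWE 2). Those at an unadjusted p under 0.05 numbered 0, and DESeq2 called 0. Vip was at 157, 161 and 171 CPM in NC, with MC at 126, 792 and 146 and LRWE at 101, 16.4 and 30.5 and Prph at 74.0, 79.3 and 111 CPM in NC, with MC at 245, 426 and 267 and LRWE at 222, 36.1 and 84.9, with MC 2 high and LRWE 2 low in both, and neither passed (-1.73 ± 0.81, adjusted p = 0.210, and 0.37 ± 0.55, adjusted p = 0.720). Vip was called with voom (adjusted p = 0.00535). Of 11 glial genes 2 rose (median 0.22, -0.27 without LRWE 1, 0.61 without LRWE 2). Gfap, an intermediate filament of reactive glia, was at 5.26, 6.24 and 5.78 CPM in NC, with MC at 73.3, 194 and 71.2 and LRWE at 35.5, 13.6 and 17.3. LRWE lay above NC and below MC in each mouse (1.94 ± 0.47, adjusted p = 0.0346, beside 4.29 ± 0.51 for MC), and the call was lost without NC 1, NC 2, NC 3, LRWE 1 or LRWE 3. Entpd2, a nucleotidase of glia, rose by 0.67 ± 0.17 (adjusted p = 0.0434), lost without NC 1, NC 2, NC 3, MC 3, LRWE 1, LRWE 2 or LRWE 3.

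Among fat cell genes 3 of 9 tested rose (median 0.11, -0.20 without NC 2, 2.43 without NC 3), namely Pparg, Cidec (3.04 ± 0.78, adjusted p = 0.0414) and Lpl (1.98 ± 0.33, adjusted p = 0.0103). Cidec, a lipid droplet protein, was at 1.18, 1.54 and 7.35 CPM in NC and 27.2, 32.8 and 23.0 in LRWE, and Lpl, lipoprotein lipase, at 11.8, 8.20 and 15.9 CPM in NC and 29.6, 50.9 and 61.2 in LRWE. Cidec was lost without NC 1, NC 2, MC 1, MC 3, LRWE 1, LRWE 2 or LRWE 3, and Lpl without NC 1 or NC 2. The defining markers Adipoq (-1.22 to 3.69) and Plin1 (-1.19 to 1.98) were not called and had no steady direction over the alternatives. Plin4, Fabp4, Retn and Cfd were not called either and also changed sign under some alternatives. Of 3 tested pancreatic acinar genes Cela1, an elastase, was at 307, 279 and 214 CPM in NC, with MC at 21.4, 53.3 and 47.9 and LRWE at 45.5, 57.3 and 35.8 and fell (-2.53 ± 0.35, adjusted p = 0.00536, called without each library in turn), while Clps did not pass (-2.06 ± 0.63, adjusted p = 0.0704). Clps was called with DESeq2, limma on log2(FPKM + 1), limma on log2(FPKM + 0.1), the NC and LRWE libraries alone and voom, and without MC 2 (adjusted p = 0.00452 to 0.0486). Globin transcripts, which come from red cells and their precursors, rose in 4 of 4 tested genes (median 1.77). Hbb-bs was at 9.12, 11.9 and 13.4 CPM in NC, with MC at 18.02, 22.1 and 36.6 and LRWE at 52.8, 43.5 and 24.0 (1.80 ± 0.35, adjusted p = 0.0170) and Hba-a1 at 11.7, 10.5 and 11.1 CPM in NC and 44.7, 47.6 and 19.6 in LRWE (1.75 ± 0.35, adjusted p = 0.0183). Hbb-bt (2.23 ± 0.41, adjusted p = 0.0138) and Hba-a2 (1.52 ± 0.38, adjusted p = 0.0377) have near-identical partners, so the split within each pair is uncertain. Globin calls numbered 0 without NC 1 or NC 2 and 1 without NC 3. edgeR called no gene of the lists for MHC class II (7 tested, 0 at an unadjusted p under 0.05), tuft cells (9 and 3), mast cells (5 and 1), matrix proteases (16 and 4), mesothelium (5 and 3) and squamous epithelium (8 and 1). DESeq2 called 0, 0, 1, 3, 1 and 1 of them in the same order. edgeR calls among tuft cell genes numbered 1 without MC 2 or LRWE 2, among mast cell genes 1 without MC 2, among matrix proteases 1 without LRWE 1 and among squamous genes 1 without MC 2 or LRWE 1. Of 12 immediate early genes, which respond fast to stimuli and to handling, 1 rose, namely Ier3, at 6.35, 6.37 and 7.71 CPM in NC, with MC at 13.3, 53.6 and 23.0 and LRWE at 28.5, 20.1 and 18.4 (1.72 ± 0.45, adjusted p = 0.0451). Its groups did not overlap, and calls in that list numbered 0 without NC 1, NC 2, NC 3, MC 3, LRWE 2 or LRWE 3 and 2 without MC 2.

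The JAK/STAT pathway, named in the title of the series, was examined at the level of RNA, which does not measure phosphorylation. edgeR called none of the 11 genes for JAK kinases and STAT factors, and their median was -0.00 (-0.09 without NC 1, 0.21 without NC 3). Among all tested genes 10.0% were called, a share from which a list of 11 genes without a call cannot be told apart. Those at an unadjusted p under 0.05 numbered 3, and DESeq2 called 1. edgeR called 1 without MC 2. Stat3, the factor downstream of IL-6 family receptors, was at 81.8, 73.6 and 69.3 CPM in NC, with MC at 128, 275 and 130.0 and LRWE at 146, 137 and 92.9. LRWE lay above NC without overlap, MC 2 was highest, and LRWE did not pass (0.74 ± 0.31, adjusted p = 0.160), while MC against NC gave 1.25 ± 0.31 (adjusted p = 0.0488). Stat3 was called with the NC and LRWE libraries alone, and without MC 2 (adjusted p = 0.0323 to 0.0478). Stat6, used by IL-4 and IL-13 receptors, was at 52.5, 61.8 and 60.2 CPM in NC and 73.5, 76.4 and 79.1 in LRWE and missed the threshold (0.39 ± 0.12, adjusted p = 0.0691). Stat6 was called with DESeq2 and voom (adjusted p = 0.00534 to 0.0124). Jak1, a kinase of many cytokine receptors, had -0.28 ± 0.18 (adjusted p = 0.371), and Stat5b had 0.24 ± 0.16 (adjusted p = 0.395). Stat2, a factor of interferon signalling, had 0.35 ± 0.26 (adjusted p = 0.439). Jak2 (-0.06 ± 0.15), Jak3 (-0.00 ± 0.33), Tyk2 (-0.33 ± 0.17), Stat5a (-0.16 ± 0.38) and Stat4 (-1.83 ± 0.72) had adjusted p-values of 0.826, 0.999, 0.258, 0.837 and 0.140. Tyk2 was called with voom (adjusted p = 0.0401). The 95% interval of the difference, not adjusted for the number of genes tested, was -0.69 to 0.13 for Jak1, -0.40 to 0.27 for Jak2 and 0.05 to 1.44 for Stat3.

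Targets and feedback genes of the pathway had 2 rises and 1 fall of 22 tested (median 0.10, -0.02 without NC 2, 0.13 without NC 3). Among all tested genes 6.04% were called higher and 3.97% lower, so these counts were near the share of all genes. Bcl2l1, which encodes the survival factor BCL-xL, was at 25.1, 26.3 and 25.6 CPM in NC, with MC at 63.1, 53.3 and 62.8 and LRWE at 76.5, 92.7 and 79.7. All 3 LRWE libraries were above all 3 MC libraries, which were above all 3 controls, and LRWE against NC gave 1.69 ± 0.13 (adjusted p = 0.00129, called without each library in turn). Pim1, a kinase induced by STAT factors, was at 14.3, 9.93 and 13.3 CPM in NC, with MC at 25.0, 43.0 and 24.7 and LRWE at 23.5, 29.9 and 27.2 (1.10 ± 0.25, adjusted p = 0.0299, lost without NC 1, NC 2, NC 3, LRWE 2 or LRWE 3). Socs3, the feedback inhibitor induced by STAT3, was at 9.38, 12.6 and 18.9 CPM in NC, with MC at 32.0, 179.6 and 33.3 and LRWE at 51.2, 55.0 and 19.1. LRWE 3 was level with the highest control, and the difference did not pass (1.61 ± 0.70, adjusted p = 0.178). Socs3 was called without MC 2 (adjusted p = 0.0386). Lifr, the receptor of leukaemia inhibitory factor, fell from 43.3, 41.4 and 39.2 CPM in NC to 10.2, 2.18 and 8.79 in LRWE (-2.55 ± 0.47, adjusted p = 0.0142, lost without NC 1, NC 2 or NC 3). The number of targets called was 1 without NC 1, NC 2 or NC 3 and 5 without MC 2.

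**Figure D5:**
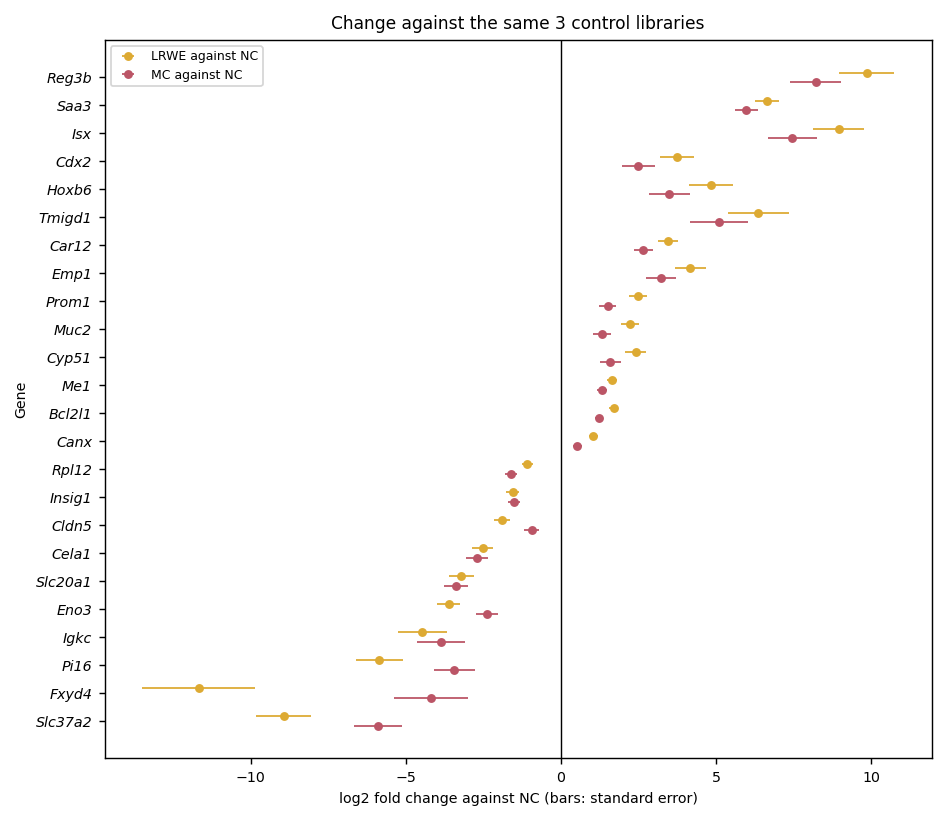
Log2 fold change against NC (horizontal axis) with its standard error for 24 genes, for LRWE (yellow) and for MC (red), which share the 3 NC libraries. Fxyd4 and Slc37a2 reach farthest left and Reg3b farthest right for LRWE.

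Whether a gene that differed between LRWE and NC also differed between LRWE and MC is a separate test. In the direct test of LRWE against MC edgeR called 0 genes, or 0.0%. The smallest adjusted p was 0.164, and 5139 genes had an unadjusted p under 0.05. DESeq2 called 2001, and edgeR called 2436 without LRWE 1 and 1 without MC 3. The intervals that follow are of single genes and are not adjusted for the number of genes tested. One that leaves out 0 is therefore not a call. For Reg3b the log2 difference of LRWE over MC was 1.64 (95% interval 0.25 to 3.04), for Muc2 0.92 (0.26 to 1.57), for Bcl2l1 0.47 (0.18 to 0.77), and for Srxn1 0.67 (0.18 to 1.17). Intervals on the other side of 0 were found for Slc37a2, -3.04 (-4.60 to -1.49), for Mptx1, -4.94 (-7.26 to -2.62), and for Gfap, -2.35 (-3.42 to -1.28). Ribosomal Rpl12 had 0.53 (0.11 to 0.94). Those of Saa3 (-0.00 to 1.32), Slc20a1 (-0.65 to 0.999), Insig1 (-0.49 to 0.39) and Stat3 (-1.20 to 0.19) included 0, and a miss of the threshold does not show that LRWE and MC were alike in these genes.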

How the data were processed

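Poly(A) RNA of mouse colon was sequenced in 9 libraries, of which 3 NC and 3 LRWE libraries were compared and 3 MC libraries shared the estimate of spread. The deposited table gives FPKM and whole-number counts per gene for each library. How the authors made the counts is not stated, and the unit of expected counts was assumed for them since StringTie is among the tools listed. The tools listed in the submitters' processing notes are StringTie 1.3.4d, HISAT2 2.0.4, cutadapt 1.9 and edgeR, with no settings, beside a human genome build that cannot be that of these mouse identifiers, so coordinates are printed as the authors deposited them. No source used here states strand use in counting, so reads of overlapping genes cannot be told apart. Counts were taken as deposited whole numbers and analysed in R 4.3.3 with edgeR 4.0.16 (low counts removed by filterByExpr, TMM scaling, 1 fit over 9 libraries, Benjamini-Hochberg adjustment, calls at an adjusted p under 0.05). Where a group had no count, the bound of a fold uses 3 counts over the group. limma 3.58.1 and DESeq2 1.42.0 served as alternatives, and the edgeR step was tested on simulated data. Replicates are separate samples in the labels. The p-values set a group difference against the spread between replicates, estimated over all 9 libraries with information shared across genes.

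The members and lists were chosen with earlier results of these data known. The text names the 12 largest rises and 12 largest falls with separate groups and a mean of at least 1 CPM, up to 5 called members of each list (or its 2 most abundant), the JAK/STAT genes and the defining cell markers. Other called members were named after their values were seen, and some genes that the rule takes in are not reported here. Of 797 symbols in 46 lists, 790 matched the table and 7 did not. Promoters come from RefSeq, GRCm38.p6.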

Additional observations from a re-analysis of the deposited data

How the results depend on the processing

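Calls of LRWE against NC (2179) were within 1.5 times with RLE size factors (2180), library totals (2068), no filter on low counts (1497, although those higher went from 1314 to 821), a mean CPM of at least 1 (2432), limma on log2(FPKM + 1) (2923, with those lower going from 865 to 1381) or on log2(FPKM + 0.1) (2825), and the 6 NC and LRWE libraries alone (2394). DESeq2 called 4398 (2286 higher, 2112 lower), and voom with quality weights 6142 (2898 and 3244). The share of calls that were higher was 60.3% as reported, 52.0% by DESeq2 and 47.2% by voom. Leaving out 1 library gave 459 (NC 2) to 2725 (MC 2) calls, 256 to 1659 higher and 203 to 1176 lower. MC against NC, with 1386 calls, had 281 (without NC 1) to 3318 (without LRWE 2), and 3762 by DESeq2. LRWE against MC had 0 to 2436 without single libraries, and 2001 by DESeq2. DESeq2 called 2173 of the 2179 genes in the same direction, 380 genes were called under all 19 alternatives, and no called gene changed sign under any of them. Replicate numbers gave no sign of pairing: deviations from the group mean in same-numbered NC and LRWE libraries correlated at -0.0404, -0.00438 and -0.000508, and 0 of 6 were closest to their own number. With 3 libraries a group such a check cannot exclude a pairing. With the number as a replicate block there were 600 calls (350 higher, 250 lower), 591 of them shared with the 2179. Of the alternatives for single named genes, 2510 kept direction and side of the threshold, 557 lost a call, 61 gained one and 12 changed sign, all in genes that were not called. These were Prph (-0.01 and -0.02 with limma on FPKM, -0.55 without LRWE 1 and up to 0.80 without LRWE 2), Jak2 (-0.14 to 0.02 without single libraries), Jak3 (0.01 with NC and LRWE alone, 0.02 with the replicate block, -0.18 to 0.26 without single libraries, including 0.00, 0.03 and 0.12), and, with voom, Il1b (-4.43) and Tnf (-0.35). Apart from fits without single libraries, list medians changed sign for enteric neurons (lowest -0.16) and glia (-0.06) with limma on FPKM, inflammatory cytokines (-0.68 at a mean CPM of at least 1, -1.25 with voom), junctions (lowest -0.08, with voom) and wound-associated epithelium (highest 0.09, with NC and LRWE alone). They also changed sign for squamous epithelium (lowest -0.56), immediate early genes (highest 0.07) and the JAK/STAT core (highest 0.02). Where no cause is given, the cause was not tested. With 3 mice a group and transcripts under about 1 CPM, small differences were not detectable at this depth.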
